A study of Mus musculus with 7 samples.

Results

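*Irx1*, *Irx2*, *Irx3*, *Irx4*, *Irx5*, *Gbx2*, *Tlx2*, *Msx1* and *Msx2* are developmental homeobox genes, 9 of the 43346 genes in a count table of 7 mouse colon tumors. They were chosen as factors that were nearly silent in tumors of mice with wild-type bone marrow (BM), together with their paralogs for comparison. They were selected on the counts of these same tumors, by the difference between the BM groups, so their values in that comparison are described without a p-value. A log2 difference or log2 fold change is that of tumors with the *Dnmt3a*(+/-) graft over tumors with the *Dnmt3a*(+/+) graft, with its standard error (SE).

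Homeobox genes encode transcription factors that bind DNA through a homeodomain and set regional identity in the embryo. The Iroquois (Irx) genes belong to the TALE class and sit in a pair of clusters, IrxA with *Irx1*, *Irx2* and *Irx4* and IrxB with *Irx3*, *Irx5* and *Irx6*. In many developing tissues the genes of 1 Irx cluster are transcribed together, whereas *Irx4* is best known from the ventricular wall of the heart. *Gbx2* positions the midbrain-hindbrain boundary, and *Tlx2* acts in the development of enteric neurons. *Msx1* and *Msx2* are transcriptional repressors and well-known targets of bone morphogenetic protein (BMP) signaling in limb and face. Many such genes lie in CpG-rich chromatin that Polycomb complexes keep silent in adult tissue.

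The tumors came from wild-type recipients, C57BL6/J aged 8 weeks per the labels, that were irradiated and given *Dnmt3a*(+/+) BM (n = 3) or *Dnmt3a*(+/-) BM (n = 4). Donors of both groups carried *Mx1-Cre*, a Cre driver induced by poly(I:C), so the *Dnmt3a* deletion was made in donor cells and not in the recipients. The study's methods describe the recipients as congenic mice of a younger age, which was not resolved here. The carcinogen azoxymethane was given once, at 10 mg/kg, and followed by 3% dextran sulfate sodium for 3 cycles of 1 week on and 2 weeks off. The tumors are from 2 transplantation experiments: replicates 1 and 2 of each group from BMT18, and the others (*Dnmt3a*(+/+) replicate 3, *Dnmt3a*(+/-) replicates 3 and 4) from BMT8.

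Whole tumors were sequenced to totals of 38472738 to 64314999 counts. Levels are given as CPM, which are counts scaled to the TMM library sizes of edgeR. *Dnmt3a* itself, counted from host and graft cells together, had a log2 difference of 0.43 (SE 0.24). All 14 colon epithelium markers were present in every tumor, *Epcam* at 1543 to 3239 CPM. *Dnmt3a*(+/-) replicate 2 stood farthest out on principal component 1 (42.9% of the variance) and was the highest tumor for 24.7% of the 15810 genes with enough counts for a test. edgeR's quasi-likelihood test called 0 of these 15810 genes (0.0%) between the BM groups, where a call needs an adjusted p under 0.05 and a log2 fold change beyond 1 in size. At an unadjusted p under 0.05 there were 1856 (11.7%), and the calls by DESeq2 numbered 300, which were 1.51% of its 16056 genes in the higher and 0.355% in the lower direction. In whole tumors, fewer cells of a type and less RNA per cell cannot be told apart.

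Each of the 4 *Dnmt3a*(+/-) tumors was above each of the 3 *Dnmt3a*(+/+) tumors for 5 of the 9 members, *Irx4*, *Gbx2*, *Tlx2*, *Irx5* and *Msx1*. Over all 15810 genes tested, 6.12% had that order and 6.32% the opposite one, and since the members were chosen for this order nothing is read from their count. The other 4 members, *Irx1*, *Irx2*, *Irx3* and *Msx2*, overlapped between the groups. In all, 8 members had enough counts for the fit, and *Msx2* had too few. The wording "nearly silent" held for 4 members that stayed under 1 CPM in each *Dnmt3a*(+/+) tumor, *Irx4*, *Gbx2*, *Tlx2* and *Msx2*, and not for *Irx5* or *Msx1*.

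**Figure D1:**
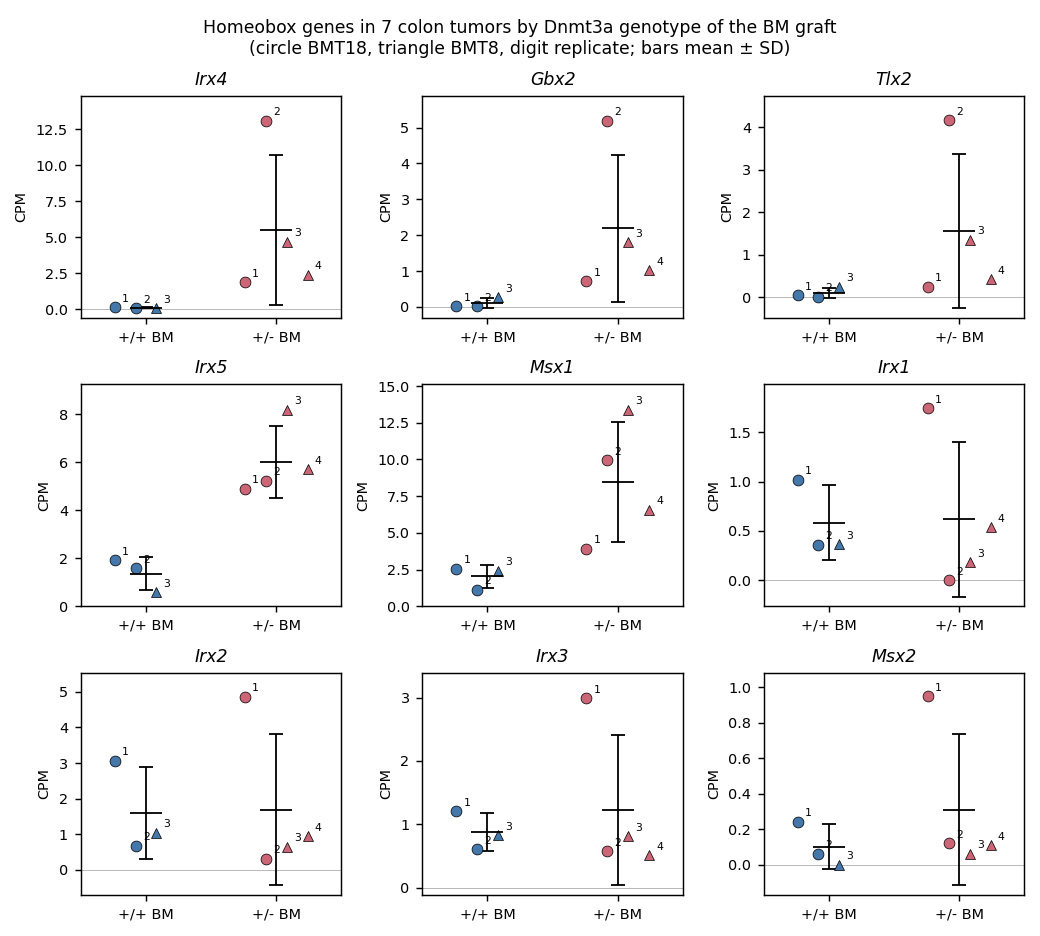
CPM (linear axis) of the 9 members in each tumor by *Dnmt3a* genotype of the BM graft, with digits giving the replicate, symbols the experiment, and bars the mean ± SD (n = 3 and n = 4). *Irx4*, *Gbx2* and *Tlx2* peak in *Dnmt3a*(+/-) replicate 2, *Irx5* and *Msx1* in *Dnmt3a*(+/-) replicate 3, and *Irx1*, *Irx2*, *Irx3* and *Msx2* in *Dnmt3a*(+/-) replicate 1.

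*Irx4* (ENSMUSG00000021604; chromosome 13 of GRCm38 from 73260479 to 73269608, plus strand) had 0.161, 0.0781 and 0.0918 CPM in *Dnmt3a*(+/+) replicates 1 to 3. In *Dnmt3a*(+/-) replicates 1 to 4 it had 1.87, 13.1, 4.69 and 2.41 CPM. The *Dnmt3a*(+/+) values rest on 6, 5 and 3 counts and the *Dnmt3a*(+/-) values on 75 to 643. The groups did not overlap, and the lowest *Dnmt3a*(+/-) tumor, replicate 1, was still far above the highest *Dnmt3a*(+/+) tumor. Means were 5.52 ± 5.20 CPM (SD, n = 4) against 0.110 ± 0.0446 CPM (SD, n = 3). The pooled CPM ratio was 56.6, with a 95% interval of 33.6 to 104 that covers counting error only. The fitted log2 fold change was 5.68 (SE 0.96), and 4.83 without *Dnmt3a*(+/-) replicate 2.

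*Gbx2* (ENSMUSG00000034486; chromosome 1, 89927956 to 89931179, minus strand) had 0.0269, 0.0156 and 0.275 CPM in the *Dnmt3a*(+/+) tumors, from 1, 1 and 9 counts. It had 0.724, 5.20, 1.81 and 1.03 CPM in *Dnmt3a*(+/-) replicates 1 to 4, from 29, 255, 89 and 38 counts. The *Dnmt3a*(+/+) tumor with a measurable level was replicate 3, from BMT8, and it remained below all *Dnmt3a*(+/-) tumors. The pooled ratio was 28.5 (95% counting interval 15.8 to 57.6) and the fitted log2 fold change 4.64 (SE 1.11). With so few *Dnmt3a*(+/+) counts the fitted value depended on single tumors: it was 6.63 without *Dnmt3a*(+/+) replicate 3, 3.80 without *Dnmt3a*(+/-) replicate 2, and 7.06 in BMT18 alone.

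*Tlx2* (ENSMUSG00000068327; chromosome 6, 83068324 to 83070293, minus strand) had 0.0537, 0.0156 and 0.245 CPM in the *Dnmt3a*(+/+) tumors. It had 0.250, 4.18, 1.36 and 0.433 CPM in the *Dnmt3a*(+/-) tumors. The order of the groups was narrow at 1 point, since *Dnmt3a*(+/-) replicate 1 and *Dnmt3a*(+/+) replicate 3 rest on 10 and 8 counts. The pooled ratio was 20.7 (95% counting interval 11.4 to 41.9), and the fitted log2 fold change was 4.17 (SE 1.27), or 3.04 without *Dnmt3a*(+/-) replicate 2 and 5.62 without *Dnmt3a*(+/+) replicate 3.

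The enteric neuron list, the cell type in which *Tlx2* is known to act, overlapped between the groups in its summed level. Its 15 genes summed to 24.3 to 58.4 CPM in the *Dnmt3a*(+/+) tumors and 46.1 to 54.6 CPM in the *Dnmt3a*(+/-) tumors. Much of that sum in several tumors was *Stmn2*, a neuronal microtubule regulator, at 40.3, 9.63 and 22.4 CPM in the *Dnmt3a*(+/+) tumors and 29.9, 5.05, 3.98 and 3.81 CPM in the *Dnmt3a*(+/-) tumors. Of 10 list genes tested, 2 were higher at an unadjusted p under 0.05 and 0 lower, beside 6.23% and 5.51% of all genes tested, *Ret* with a log2 difference of 2.03 (SE 0.40) and *Uchl1* with 1.14 (0.48). The median log2 fold change of the 10 was 0.82, and 0.18 without *Dnmt3a*(+/-) replicate 2. The levels of single list genes ran from *Chat*, at 0 in 4 tumors and at most 0.0812 CPM, to *Ret*, at 4.97 to 35.2 CPM, with *Tubb3* at 1.0 to 6.58 CPM and *Syp* at 1.05 to 2.66 CPM. The part of neurons in the level of *Tlx2* was not tested.

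*Irx4*, *Gbx2* and *Tlx2* had their highest value in the same tumor, *Dnmt3a*(+/-) replicate 2. Fibroblast, endothelial and leukocyte markers were also high there, and smooth muscle markers were not. The 9 smooth muscle genes summed to 272 CPM in *Dnmt3a*(+/-) replicate 2. They summed to 361 to 1236 CPM in the other *Dnmt3a*(+/-) tumors and 43.1 to 970 CPM in the *Dnmt3a*(+/+) tumors. The 14 fibroblast genes summed to 1120 CPM in *Dnmt3a*(+/-) replicate 2, against 271 to 392 CPM in the other *Dnmt3a*(+/-) tumors and 193 to 333 CPM in the *Dnmt3a*(+/+) tumors, with *Mfap5* at 0 in 1 tumor. The 13 endothelial genes summed to 227 CPM in *Dnmt3a*(+/-) replicate 2, against 50.0 to 116 CPM in the other *Dnmt3a*(+/-) tumors and 25.4 to 50.9 CPM in the *Dnmt3a*(+/+) tumors, with no gene at 0. Of the 13, 10 were higher at an unadjusted p under 0.05, beside 6.23% of all genes tested. The median log2 fold change of the endothelial genes was 1.77, and 1.25 without *Dnmt3a*(+/-) replicate 2. The 10 leukocyte genes summed to 300.1 CPM in *Dnmt3a*(+/-) replicate 2, against 90.9 to 164 CPM in the other 6 tumors. Of the 10, 9 were highest there, beside 24.7% of all genes tested. The part of these cells in the levels of *Irx4*, *Gbx2* and *Tlx2* was not tested. Without *Dnmt3a*(+/-) replicate 2 the log2 fold changes of the 3 genes were lower, at 4.83, 3.80 and 3.04.

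*Irx5* (ENSMUSG00000031737; chromosome 8, 92357625 to 92376286, plus strand) had 1.91, 1.58 and 0.581 CPM in the *Dnmt3a*(+/+) tumors. It had 4.89, 5.24, 8.18 and 5.70 CPM in the *Dnmt3a*(+/-) tumors. The *Dnmt3a*(+/-) tumors lay close together, and *Dnmt3a*(+/-) replicate 2 was not set apart. Means were 6.0 ± 1.49 CPM (SD, n = 4) and 1.36 ± 0.690 CPM (SD, n = 3), a fitted log2 difference of 2.13 (SE 0.44) that ranged from 1.79 to 2.40 when 1 tumor was left out.

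*Msx1* (ENSMUSG00000048450; chromosome 5, 37820485 to 37824583, minus strand) had 2.55, 1.12 and 2.42 CPM in the *Dnmt3a*(+/+) tumors. It had 3.92, 9.96, 13.4 and 6.57 CPM in the *Dnmt3a*(+/-) tumors. As for *Irx5*, the highest tumor was *Dnmt3a*(+/-) replicate 3 and the lowest *Dnmt3a*(+/-) tumor was replicate 1. The fitted log2 fold change was 2.08 (SE 0.52), from 1.77 to 2.36 with 1 tumor left out. *Irx5* and *Msx1* thus had more modest fold changes than *Irx4*, *Gbx2* and *Tlx2*, with smaller SEs and less dependence on 1 tumor.

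**Figure D2:**
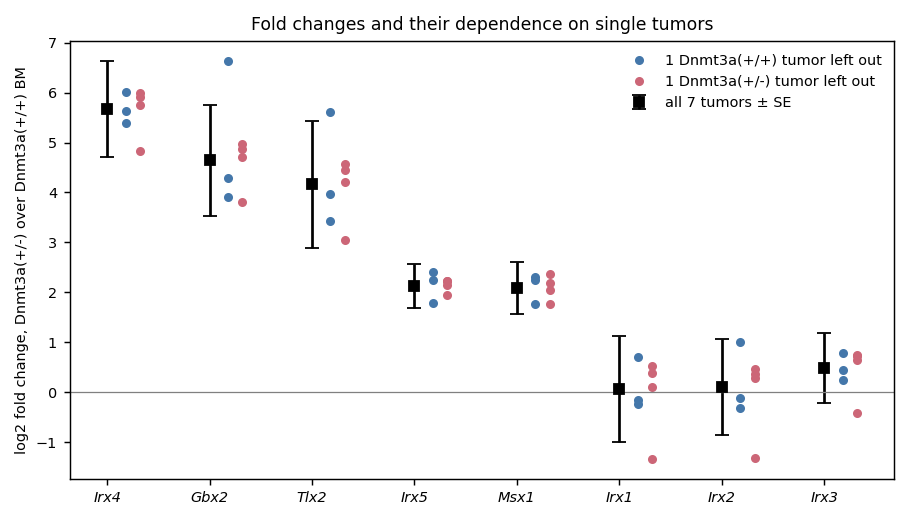
Log2 fold change of *Dnmt3a*(+/-) over *Dnmt3a*(+/+) BM for the 8 members that could be fitted, with all 7 tumors (squares, bars are standard errors) and with 1 tumor left out (points). *Irx4* stays between 4.83 and 6.01 and *Irx5* between 1.79 and 2.40, while *Irx1*, *Irx2* and *Irx3* lie near 0 and fall below it without *Dnmt3a*(+/-) replicate 1.

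The remaining Irx members had another order of tumors. *Irx2* (ENSMUSG00000001504; chromosome 13, 72628820 to 72634198) had 3.06, 0.671 and 1.04 CPM in the *Dnmt3a*(+/+) tumors and 4.87, 0.306, 0.650 and 0.946 CPM in the *Dnmt3a*(+/-) tumors. *Irx1* (ENSMUSG00000060969; chromosome 13, 71957921 to 71963723) had 1.02, 0.359 and 0.367 CPM against 1.75, 0, 0.183 and 0.541 CPM. Both were highest in replicate 1 of each group and lowest in *Dnmt3a*(+/-) replicate 2, where 0 counts of *Irx1* allow up to 0.0611 CPM (3 counts, counting error only).

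*Irx3* (ENSMUSG00000031734; chromosome 8, 91798525 to 91802067) had 1.21, 0.609 and 0.826 CPM in the *Dnmt3a*(+/+) tumors and 2.99, 0.570, 0.812 and 0.514 CPM in the *Dnmt3a*(+/-) tumors. *Msx2* (ENSMUSG00000021469; chromosome 13, 53466884 to 53473074) had 0.242, 0.0624 and 0 CPM against 0.948, 0.122, 0.0609 and 0.108 CPM. *Msx2* rests on 38 counts in *Dnmt3a*(+/-) replicate 1 and on 0 to 9 counts elsewhere, and its 0 in *Dnmt3a*(+/+) replicate 3 allows up to 0.0918 CPM. For these 4 genes *Dnmt3a*(+/-) replicate 1 was the highest tumor (12.2% of all genes tested), followed by *Dnmt3a*(+/+) replicate 1, and the groups overlapped.

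The fitted log2 fold changes were 0.06 (SE 1.07) for *Irx1*, 0.10 (0.96) for *Irx2* and 0.48 (0.70) for *Irx3*. Without *Dnmt3a*(+/-) replicate 1 they turned to -1.34, -1.31 and -0.41. The wide SEs leave room for sizable differences in either direction, so these values do not show that the groups were alike.

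Markers of squamous epithelium, which is no part of colonic mucosa but lines the anal canal and skin, moved with this order of tumors. The 14 genes of the list summed to 27300, 5294 and 5896 CPM in the *Dnmt3a*(+/+) tumors and to 31170, 315, 5809 and 5576 CPM in the *Dnmt3a*(+/-) tumors. They were highest in replicate 1 of each group and lowest in *Dnmt3a*(+/-) replicate 2, like *Irx1* and *Irx2*. *Krt5* ranged from 0.0815 to 5963 CPM and *Trp63*, a master regulator of stratified epithelium, from 0.0204 to 196 CPM, while *Krtdap* and *Sprr3* were each at 0 in 1 tumor. Of the 14 genes, 0 were higher and 0 lower between the BM groups at an unadjusted p under 0.05, beside 6.23% and 5.51% of all genes tested. The part of squamous tissue in the levels of *Irx1*, *Irx2*, *Irx3* and *Msx2* was not tested.

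**Figure D3:**
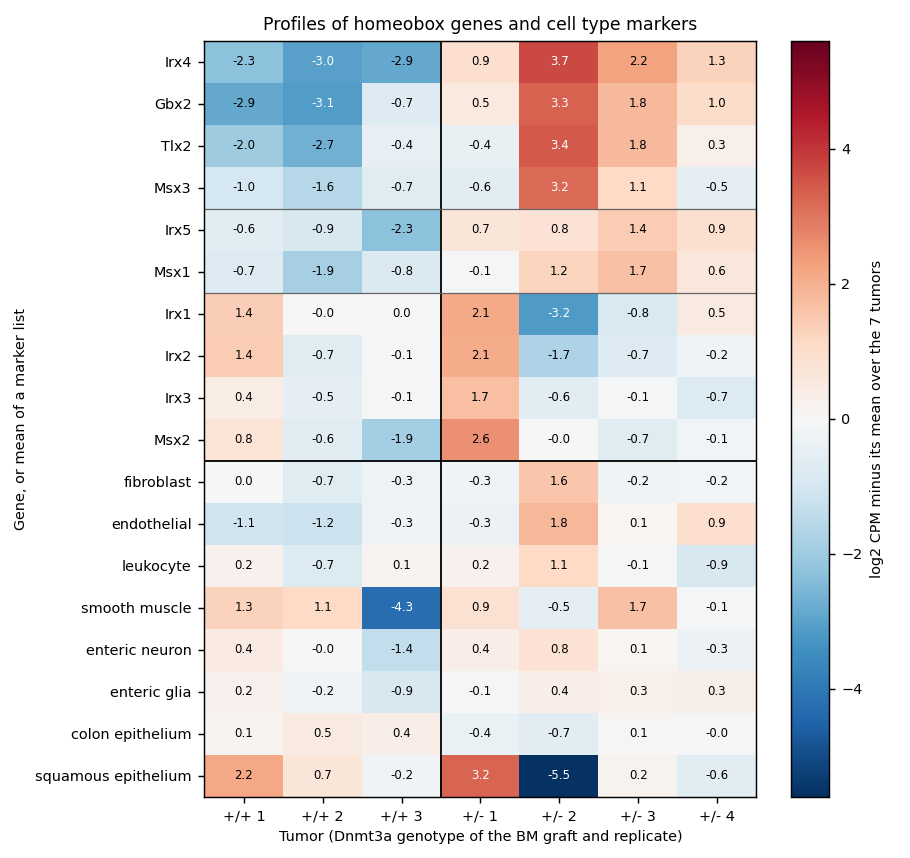
Log2 CPM minus its mean over the 7 tumors, printed in each cell, for the 9 members and *Msx3* (above the black line) and for the mean of 8 marker lists (below it). *Irx4*, *Gbx2*, *Tlx2* and *Msx3* are deepest red in *Dnmt3a*(+/-) replicate 2, where fibroblast and endothelial markers are also high, and *Irx1*, *Irx2*, *Irx3* and *Msx2* follow *Dnmt3a*(+/-) replicate 1 and *Dnmt3a*(+/+) replicate 1, where squamous markers are high.

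Likeness of profiles was described by the root mean square (RMS) difference between log2 CPM profiles, each centred on its own mean over the 7 tumors. Among the 36 pairs of members, the closest was *Gbx2* with *Tlx2* (0.5998), on different chromosomes, followed by *Irx2* with *Irx3* (0.663), *Irx1* with *Irx2* (0.671) and *Irx5* with *Msx1* (0.766). The farthest was *Irx1* with *Irx4* (3.58), which both belong to the IrxA cluster. In that cluster the start of *Irx4* lies 631.7 kb from that of *Irx2* and 1297 kb from that of *Irx1*. The IrxB neighbours *Irx3* and *Irx5*, 555.6 kb apart, also differed in their highest tumor, and *Irx6* had 0 counts in all 7 tumors. Within IrxA, *Irx1* and *Irx2* were close and *Irx4* stood apart. The members were chosen on these same values, so nothing is read from that.

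The genes with the most similar profiles over the 7 tumors differed between the sets. For *Irx4* they were *Gabra4*, a GABA-A receptor subunit (RMS difference 0.627), *Camkv* (0.847) and *Gbx2* itself (0.891). For *Gbx2* they were *Tlx2*, *Jakmip3* (0.664) and *Aox4* (0.798), and for *Tlx2* they were *Jakmip3* (0.380), *Zfp469* (0.572) and *Lect2* (0.576). The nearest profiles of *Irx4* and *Gbx2* were less close than those of the other 7 members. The RMS difference is not scaled to a gene's spread over tumors, and *Irx4* and *Gbx2* had the largest fitted log2 fold changes of the members.

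For *Irx5* the nearest were *Six4*, another homeobox gene (0.391), *Ttc21a* (0.407) and *Pcdhb7* (0.412). For *Msx1* they were the long noncoding RNA *Trp53cor1* (0.237), the methylcytosine dioxygenase *Tet1* (0.255) and the Wnt feedback inhibitor *Nkd1* (0.291). *Trp53cor1* was low, at 0 to 0.0918 CPM in the *Dnmt3a*(+/+) tumors and 0.150 to 0.447 CPM in the *Dnmt3a*(+/-) tumors. For *Irx2* they were *Snai2*, a repressor expressed in basal keratinocytes (0.190), *Gm4524* (0.215) and *Fabp5*, the epidermal fatty acid binding protein (0.220). For *Irx1* they were *Gprc5d* (0.138), *D030025P21Rik* (0.225) and *Mgat5b* (0.290). *Irx3* was closest to *Prob1* (0.236), *Mpdz* (0.247) and *Myo5a* (0.301), and *Msx2* to *S1pr3* (0.359), *Tuba8* (0.389) and *Kcnh1* (0.419).

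Levels of different genes can be set side by side only per length. In mean CPM per kb of exon, the *Dnmt3a*(+/+) tumors ranked *Msx1* (0.656), *Irx2* (0.485), *Irx5* (0.433), *Irx3* (0.319) and *Irx1* (0.222) above *Tlx2* (0.0662), *Gbx2* (0.0487), *Irx4* (0.0423) and *Msx2* (0.0309). In the *Dnmt3a*(+/-) tumors the order was *Msx1* (2.73), *Irx4* (2.12), *Irx5* (1.92), *Gbx2* (1.01), *Tlx2* (0.983), *Irx2* (0.516), *Irx3* (0.443), *Irx1* (0.236) and *Msx2* (0.0945). *Irx4* moved from the last but 1 place to the second in these means. That place rests on *Dnmt3a*(+/-) replicate 2, where *Irx4* had 5.025 CPM per kb and *Irx5* 1.67. In *Dnmt3a*(+/-) replicates 1, 3 and 4 *Irx4* had 0.718, 1.80 and 0.923 CPM per kb, below *Irx5* at 1.56, 2.62 and 1.82. In replicate 1 it was also below *Irx2*, at 1.48 CPM per kb. Neighbours in these orders overlapped in their ranges over tumors.

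Of the paralogs that are not members, *Msx3*, known from the dorsal neural tube, had 0.242, 0.141 and 0.306 CPM in the *Dnmt3a*(+/+) tumors and 0.324, 5.07, 1.18 and 0.351 CPM in the *Dnmt3a*(+/-) tumors. The groups did not overlap, by a narrow margin in *Dnmt3a*(+/-) replicates 1 and 4. Its log2 fold change was 3.02 (SE 1.16; edgeR's test gave an adjusted p of 0.393), and 1.596 without *Dnmt3a*(+/-) replicate 2. Its highest tumor was the one in which *Irx4*, *Gbx2* and *Tlx2* peaked, not that of *Msx1* or *Msx2*. Over the *Dnmt3a*(+/+) tumors *Gbx1*, *Tlx1* and *Tlx3* summed to 0, 6 and 0 counts, and over the *Dnmt3a*(+/-) tumors to 2, 23 and 3.

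The comparison between the transplantation experiments played no part in the choice of the members, and with the BM group in the fit it could be tested. edgeR's quasi-likelihood test called 5 of 15810 genes (0.0316%) between BMT8 and BMT18, with 3166 (20.0%) at an unadjusted p under 0.05. None of the 8 members tested was called (DESeq2 called 509 genes over the whole table and 0 of the 9 members), and 0 of the 8 had an unadjusted p under 0.05. The lowest p belonged to *Irx2*, which differed by -1.34 on the log2 scale for BMT8 over BMT18 (SE 0.96; edgeR's test gave an adjusted p of 0.447), and it turned to 0.081 without *Dnmt3a*(+/-) replicate 1. Within BMT18, the log2 fold changes between the BM groups were 6.03 for *Irx4*, 1.55 for *Irx5* and 1.94 for *Msx1*. BMT8 holds 1 *Dnmt3a*(+/+) tumor, so its values have no replicate check: *Irx4* averaged 3.55 CPM in its 2 *Dnmt3a*(+/-) tumors against 0.0918 CPM in that tumor, *Irx5* 6.95 against 0.581 CPM, and *Msx1* 9.99 against 2.42 CPM.

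RefSeq promoter windows on GRCm38.p6, from 250 bases before to 50 after a start, were matched for 6 of the 9 members, *Irx2*, *Irx3*, *Irx4*, *Gbx2*, *Msx1* and *Msx2*. They held 14 to 31 CpG dinucleotides (median 26), against a median of 7 over all 32851 windows. For *Gbx2*, *Irx3* and *Msx2* all 250 bases before the RefSeq start lie in exons of the GENCODE gene models. These exons are their own for *Irx3* and *Msx2* and those of the opposite-strand gene *D130058E05Rik* for *Gbx2*. The windows of *Gbx2*, *Irx3* and *Msx2*, with 27, 14 and 22 CpG, are thus transcribed sequence in that annotation. The bases before the RefSeq start are shown for *Irx4* and *Irx2*, neighbours in 1 cluster whose profiles differed, and for *Msx1*, with CpG dinucleotides in capitals. Those of *Irx4* lie at chr13:73260247-73260496 (plus strand), the last 18 of them in its GENCODE exon, those of *Irx2* at chr13:72628570-72628819 (plus strand) and those of *Msx1* at chr5:37824586-37824835 (minus strand).
Irx4: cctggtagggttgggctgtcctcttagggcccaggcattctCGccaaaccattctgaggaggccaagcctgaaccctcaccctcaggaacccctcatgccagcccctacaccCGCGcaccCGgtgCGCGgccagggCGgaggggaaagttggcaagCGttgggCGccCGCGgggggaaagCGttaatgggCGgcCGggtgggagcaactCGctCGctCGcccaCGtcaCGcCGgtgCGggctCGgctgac
Irx2: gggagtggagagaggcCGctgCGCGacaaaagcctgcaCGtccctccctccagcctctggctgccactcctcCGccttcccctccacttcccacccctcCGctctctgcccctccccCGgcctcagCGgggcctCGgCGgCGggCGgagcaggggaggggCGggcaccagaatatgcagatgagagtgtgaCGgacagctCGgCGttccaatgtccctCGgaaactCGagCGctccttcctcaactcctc
Msx1: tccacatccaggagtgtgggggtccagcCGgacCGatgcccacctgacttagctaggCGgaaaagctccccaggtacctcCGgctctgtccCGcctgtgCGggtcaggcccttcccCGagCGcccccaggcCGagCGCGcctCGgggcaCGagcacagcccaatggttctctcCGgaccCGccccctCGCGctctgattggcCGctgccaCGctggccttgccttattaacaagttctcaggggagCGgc
The whole windows held 31, 25 and 29 CpG, a number reached or passed by 10.6%, 18.4% and 12.9% of all windows. The part of CpG content in the levels of *Irx4* and *Irx2* was not tested. Searched on both strands without regard to overlaps, the letters CCAAT were in the windows of 3 of the 6 members (*Irx2*, *Msx1* and *Msx2*) and in 37.4% of all windows, and CACGTG in that of *Gbx2* and in 7.15% of all. The TATA box letters TATAAA were in none of the 6 windows and in 13.6% of all. The homeodomain core TAATTG was in none of the 6 and in 8.0% of all, and the Iroquois core ACANNTGT, where N is any base, in none of the 6 and in 7.38% of all.

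Genes near the members on the chromosome were examined from the same fit. Of 101 tested genes that start within 1 Mb of a member, members themselves left out, 55 had a log2 fold change above 0, beside 50.2% of all genes tested. The median was 0.03, where the median over all genes was 0.00. At an unadjusted p under 0.05, 11 were higher and 3 lower, against 6.23% and 5.51% of all genes tested. For *Gbx2* and *Irx5*, the nearest tested neighbour had all *Dnmt3a*(+/-) tumors above all *Dnmt3a*(+/+) tumors, as did 6.12% of all genes tested. The nearest tested neighbours of *Irx4*, *Tlx2* and *Msx1* overlapped between the groups. *D130058E05Rik*, transcribed from the opposite strand and overlapping *Gbx2* over 946 bases, had 0.107, 0 and 0.184 CPM in the *Dnmt3a*(+/+) tumors and 0.349, 1.28, 0.589 and 0.324 CPM in the *Dnmt3a*(+/-) tumors. The strand setting of the counting is not given in the sources used here, so its reads and those of *Gbx2* may not be fully separated.

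*Crnde*, a long noncoding RNA that starts 1.505 kb upstream of *Irx5* in GENCODE's gene models and runs in the other direction without overlap, had 0.215, 0.359 and 0.245 CPM in the *Dnmt3a*(+/+) tumors and 0.624, 0.835, 0.894 and 0.595 CPM in the *Dnmt3a*(+/-) tumors. The groups did not overlap, and as for *Irx5* the highest tumor was *Dnmt3a*(+/-) replicate 3. Its log2 fold change was 1.38 (SE 0.40; edgeR's test gave an adjusted p of 0.337). In contrast, *Irx3os*, which overlaps *Irx3* on the other strand, was at or under 0.0998 CPM in every tumor.

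Farther away, the other genes near the 5 members without overlap that had an unadjusted p under 0.05 did not point in 1 direction. Around *Irx4* these were *Tppp* with a log2 fold change of -1.38, *Gm15912* with -1.68 and *Slc9a3*, an apical sodium-hydrogen exchanger, with 3.00. Around *Tlx2* they were *Slc4a5* (3.80), *Sema4f* (2.85), *Loxl3* (2.27) and *Dysf* (1.57). Near *Msx1* they were *Otop1* (2.98), *Nsg1* (1.46) and *Wfs1* (0.55), and near *Irx5*, besides *Crnde*, *Ces1c* (-1.46). *Slc9a3*, *Otop1*, *Nsg1*, *Wfs1* and the genes named around *Tlx2* were each highest in *Dnmt3a*(+/-) replicate 2. So was *D130058E05Rik*, but not *Crnde*. All 13 genes, *D130058E05Rik* and *Crnde* included, had an adjusted p above 0.05 in edgeR's test.

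**Figure D4:**
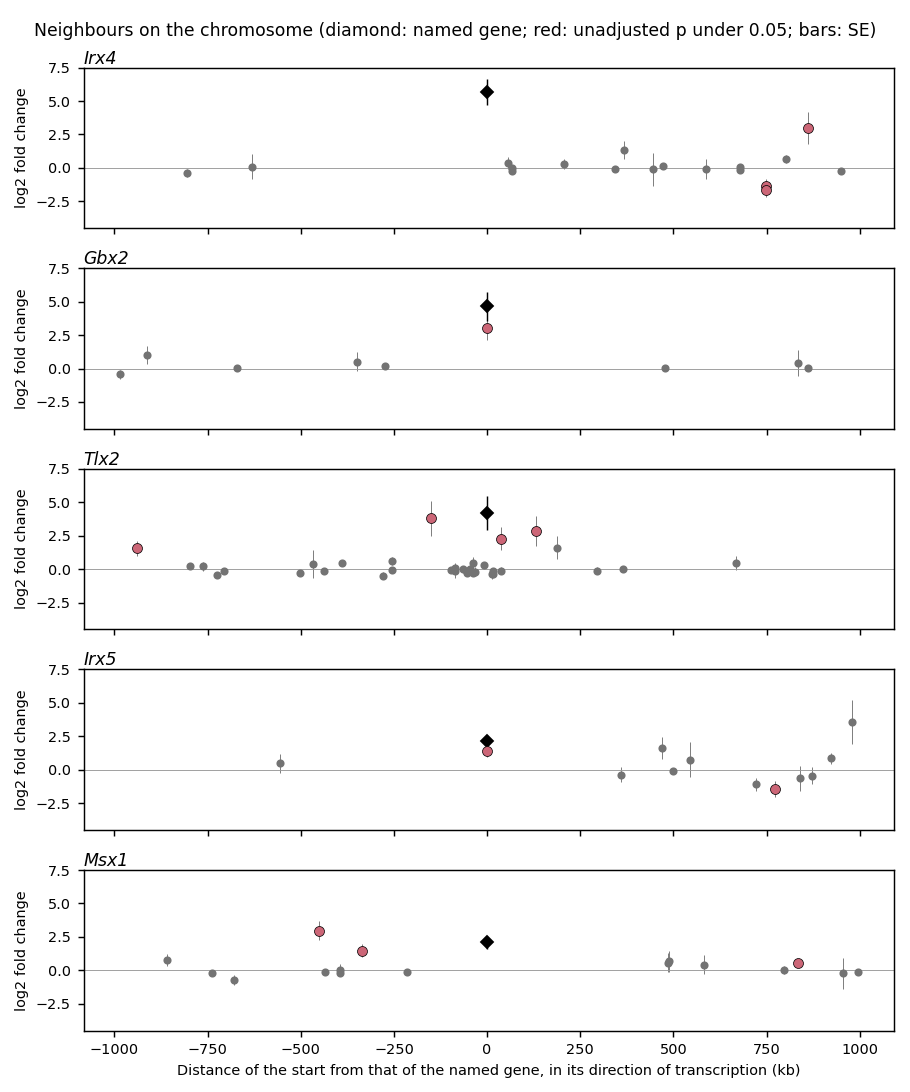
Log2 fold change of *Dnmt3a*(+/-) over *Dnmt3a*(+/+) BM (bars are standard errors) of tested genes by the distance of their start from that of *Irx4*, *Gbx2*, *Tlx2*, *Irx5* or *Msx1* (diamonds), in kb along the named gene's direction. Most neighbours lie near 0, and *D130058E05Rik* at *Gbx2* and *Crnde* at *Irx5* stand next to the diamonds.

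The rest of the homeobox family gave a wider view. Of 153 other homeobox genes outside the Hox clusters, 152 were in the table, 24 had 0 counts in all tumors and 63 could be tested. Of these 63, 43 had a log2 fold change above 0 and 20 below, with a median of 0.42 (0.34 without *Dnmt3a*(+/-) replicate 2), beside 50.2% above 0 and a median of 0.00 over all genes. At an unadjusted p under 0.05, 16 were higher and 1 lower, beside 6.23% and 5.51% of all genes tested. A gene with few counts can pass the filter through the group in which it is high. *Dlx4*, among the 16, had 0.403, 0.156 and 0.0612 CPM in the *Dnmt3a*(+/+) tumors. These shares are therefore not read as a trait of the family. *Dnmt3a*(+/-) replicate 2 was the highest tumor for 23 of the 63 (36.5%), beside the 24.7% of all genes tested given above. The count of 16 depended on single tumors and was 7 without *Dnmt3a*(+/+) replicate 2, 8 without *Dnmt3a*(+/+) replicate 1, 9 without *Dnmt3a*(+/-) replicate 2 and 5 in BMT18 alone. No gene passed edgeR's adjusted threshold, as over all genes tested. DESeq2 called 5 higher and 1, *Cdx1*, lower, beside 1.51% and 0.355% of its genes.

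The 5 with the lowest p in the higher direction were *Prox1*, *Onecut2*, *Dlx4*, *Six4* and *Dlx3*, which are the 5 that DESeq2 called. None of them overlapped between the groups. They were picked by p in this same comparison, so nothing is read from that. Of the 63, 10 had all *Dnmt3a*(+/-) tumors above all *Dnmt3a*(+/+) tumors, beside 6.12% of all genes tested. *Prox1*, a regulator of lymphatic endothelium that is also found in intestinal tumors, averaged 115 ± 50.02 CPM (SD, n = 4) against 28.4 ± 3.93 CPM (SD, n = 3), a log2 difference of 2.02 (SE 0.36; edgeR's test gave an adjusted p of 0.324). *Onecut2* averaged 14.1 against 1.91 CPM, with a log2 fold change of 2.84 (0.60). The part of lymphatic cells in the level of *Prox1* was not tested. *Dlx4*, *Six4* and *Dlx3* had log2 fold changes of 2.20, 1.85 and 1.77. Without *Dnmt3a*(+/-) replicate 2 the 5 values ran from 1.76 for *Prox1* to 2.55 for *Onecut2*.

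In the lower direction *Cdx1*, a ParaHox gene of intestinal identity, averaged 115 ± 36.4 CPM with *Dnmt3a*(+/-) BM and 254 ± 34.4 CPM with *Dnmt3a*(+/+) BM, a log2 difference of -1.15 (SE 0.27; edgeR's test gave an adjusted p of 0.324) without overlap. Its relative *Cdx2* was at a log2 fold change of 0.79 (0.29). The next in the lower direction were *Hhex* (-0.73) and *Lhx2* (-1.09), both with an unadjusted p above 0.05. The 14 colon epithelium markers were all below 0, with a median log2 fold change of -0.65, where 50.2% of all genes tested were above 0. At an unadjusted p under 0.05, 3 of them were lower, *Cdhr5* (-0.94) and *Phgr1* (-0.97) included, beside 5.51% of all genes tested. The part of the epithelial share in the level of *Cdx1* was not tested.

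**Figure D5:**
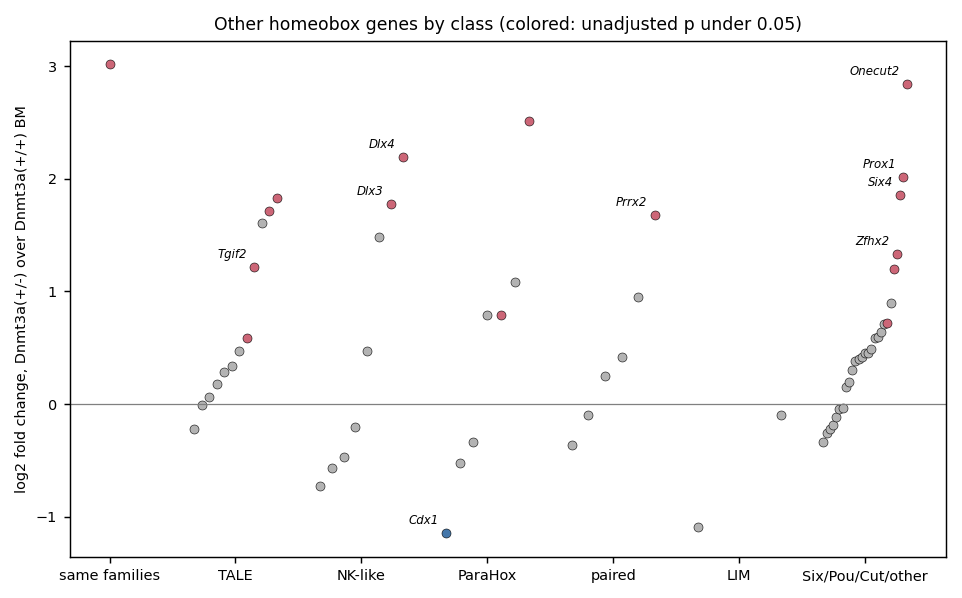
Log2 fold change of *Dnmt3a*(+/-) over *Dnmt3a*(+/+) BM of 63 other homeobox genes by class, each point a gene, red where higher and blue where lower at an unadjusted p under 0.05. Of the 63 points, 16 are red and 1, *Cdx1*, is blue. *Onecut2* is the highest of the genes named in the figure, and *Msx3*, the only tested gene of its class, is not named.

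BMP signaling, for which *Msx1* and *Msx2* are known targets, was examined through ligands, receptors and Smads and through antagonists and targets. Of 14 tested genes of the first list, 4 were higher and 0 lower at an unadjusted p under 0.05, beside 6.23% and 5.51% of all genes tested. The median log2 fold change was 0.38, and 0.20 without *Dnmt3a*(+/-) replicate 2. The lowest p were those of *Bmp7*, a ligand, with 1.52 (SE 0.39), and *Smad9*, a receptor-regulated Smad, with 1.24 (0.43). Of 14 tested antagonists and targets, 13 had a log2 fold change above 0, beside 50.2% of all genes tested. At an unadjusted p under 0.05, 2 were higher and 0 lower: *Hey1*, also a Notch target, with 2.67 (0.80; 1.75 without *Dnmt3a*(+/-) replicate 2), and *Bmper*, an extracellular BMP modulator, with 2.33 (1.00; 1.00 without it).

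Polycomb genes, whose products repress many homeobox genes, had small differences. Of 11 genes of Polycomb repressive complex 2, 3 were higher and 1 lower at an unadjusted p under 0.05, beside the same 6.23% and 5.51% of all genes, and the median log2 fold change was 0.33. The catalytic subunit *Ezh2* had 0.61 (SE 0.21) and the accessory subunit *Phf19* 0.77 (0.28). Of 19 genes of complex 1, 3 were higher and 0 lower, with a median of 0.18, and the chromodomain gene *Cbx2* had 0.88 (0.26). None of the BMP or Polycomb genes passed edgeR's adjusted threshold, nor did any of the 15810 genes tested, so nothing is read from that. DESeq2 called 1 gene higher in each BMP list, *Bmp7* and *Hey1*, and 0 Polycomb genes. Over all its genes, 1.51% were called higher.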

How the data were processed

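Polyadenylated RNA of 7 whole colon tumors was sequenced (paired-end, directional kit). Per the labels and methods, the authors trimmed reads with Trimmomatic, checked them with FastQC, aligned them to mm10 with STAR and quantified genes with RSEM. The deposited values are estimated counts (expected counts) per gene, 100% of them whole numbers, not normalized, which the authors tested with DESeq2. The annotation release is not given in the sources used here. Symbols were matched to 42462 of 43346 identifiers, genes without one held 0.104% of the counts, and positions are those of GENCODE M21 (GRCm38).

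The BM groups were tested in R 4.3.3 by edgeR 4.0.16 (TMM, filterByExpr, quasi-likelihood test, two-sided, Benjamini-Hochberg adjustment, no covariate), in steps tested on simulated data. Experiments were compared with the BM group as covariate. Log2 CPM used a prior count of 2. Alternatives were DESeq2 1.42.0, other scalings, filters and dispersions, the experiment as covariate, the replicate number as a block, BMT18 alone, windows of 0.5 and 2 Mb, and each tumor left out. Whether tumors come from separate cages or days beyond the 2 experiments is not given, so p-values measure the spread between these 7 tumors.

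The members and gene lists were chosen with earlier results of these data known. Named genes were the members, their paralogs, genes within 1 Mb of the 5 members without overlap at an unadjusted p under 0.05, the 3 nearest profiles of each member, the 5 other homeobox genes of lowest p in each direction, and the 2 of lowest p in the other lists; some genes that this rule names are not reported here. *Cdx2* and marker genes named for their level were chosen after their values were seen. Results of the leukocyte, smooth muscle and enteric glia lists: 0 of 10, 0 of 9 and 0 of 5 tested genes had an unadjusted p under 0.05, beside 11.7% of all genes tested.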

Additional observations from a re-analysis of the deposited data

Results flagged for a closer look

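In groups of 4 tumors, 6 of 30 values examined stood apart from the other 3 tumors by Dixon's 95% criterion (the gap to the nearest tumor as a share of the range), where chance gives about 1.5. Among the members, these were *Dnmt3a*(+/-) replicate 1 for *Irx2* (4.87 CPM, others 0.306 to 0.946), *Irx3* (2.99 CPM, others 0.514 to 0.812) and *Msx2* (0.948 CPM, others 0.0609 to 0.122). All 3 genes were highest in this tumor and next in *Dnmt3a*(+/+) replicate 1, so they are not treated as independent. In mean log2 CPM, *Dnmt3a*(+/-) replicate 1 was low for BMP antagonists and targets (2.76, others 3.405 to 3.52) and for enteric glia genes (1.25, others 1.66 to 1.71). *Dnmt3a*(+/-) replicate 2 was high for fibroblast genes (5.10, others 3.30 to 3.39). Groups of 3 *Dnmt3a*(+/+) tumors were not examined in this way.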

How the results depend on the processing

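The sign of the log2 fold change of *Irx4*, *Gbx2*, *Tlx2*, *Irx5* and *Msx1* was positive under every alternative run. Leaving out 1 tumor gave 4.83 to 6.01 for *Irx4*, 3.80 to 6.63 for *Gbx2*, 3.04 to 5.62 for *Tlx2*, 1.79 to 2.40 for *Irx5* and 1.77 to 2.36 for *Msx1*, and BMT18 alone gave 7.06 for *Gbx2* and 6.08 for *Tlx2*. *Irx1*, *Irx2* and *Irx3* ranged over -1.34 to 0.70, -1.31 to 1.00 and -0.41 to 0.78. A filter of CPM over 1 in at least 3 tumors kept only *Irx4*, *Irx5* and *Msx1* of the members.

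Between the BM groups, edgeR called 0 genes with all tumors, 0 to 1 with 1 tumor left out (*Gabra4*, without *Dnmt3a*(+/-) replicate 1), and 0 under the other alternatives; DESeq2 called 300, and 63 (without *Dnmt3a*(+/+) replicate 2) to 697 (without *Dnmt3a*(+/-) replicate 1) with 1 left out, an alternative added after seeing the data. Between experiments edgeR called 5, DESeq2 509, the legacy fit 1, and 0 (without *Dnmt3a*(+/-) replicate 3) to 126 (without *Dnmt3a*(+/-) replicate 2) were called with 1 left out. The difference of *Irx2* between experiments, -1.34, was -1.80 to 0.081 with 1 left out. The median of other homeobox genes, 0.42, was 0.58 with DESeq2, 0.57 without a filter and 0.66 with total counts only, a scaling under which all genes had a median of 0.21. The 16 higher at an unadjusted p under 0.05 became 7 to 21 with 1 left out and 5 in BMT18 alone, and the 1 lower became 1 to 2 with 1 left out and 2 with DESeq2, no filter or the experiment as covariate. The causes were not tested.

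Replicate numbers were not treated as pairs: deviations of same-numbered tumors correlated at 0.568, 0.0711 and -0.0377, and not every tumor was closest to its own number. With the replicate number as a block, 0 genes were called, 2025 had an unadjusted p under 0.05, and *Irx1* and *Irx2* turned to -0.55 and -0.23. Depth limits *Gbx2*, *Tlx2* and *Msx2*, with 11, 11 and 13 counts over the *Dnmt3a*(+/+) tumors.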
